A study of Mus musculus with 3 samples.

Results

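Amino acid transporters were described in 3 myeloid cell populations of the mouse colon. The genes were all symbols of 7 solute carrier families, Slc1, Slc3, Slc6, Slc7, Slc36, Slc38 and Slc43, which gave 64 of the 24346 symbols listed in each table. They comprised 7, 2, 20, 16, 5, 11 and 3 symbols in that order of families. Of these, 3 are transcripts named for lying opposite a transporter gene (Slc6a19os, Slc7a6os and Slc36a1os), so 61 are named as transporters or their subunits. The cells came from healthy BALB/c mice and fell into a CD64- gate of dendritic cells (DC in the plots), a CD64+ gate of macrophages, and a gate positive for Gr-1 and CD11b that is labelled as neutrophils and monocytes and is called Gr-1+ cells here (Gr-1+ CD11b+ in the plots). CD64 is an Fc receptor of macrophages, CD11b is an integrin chain of myeloid cells, and Gr-1 is a Ly6 epitope of granulocytes and monocytes. Age, sex and the number of mice behind each sort are not given by the labels. Each population had 1 library, so differences between populations could not be set against a replicate spread and were not tested.

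These carriers move amino acids and related molecules across the plasma membrane and the lysosomal membrane. Slc7 light chains do the transport but need a heavy chain of the Slc3 family, most often the CD98 heavy chain, to reach the cell surface. Slc1, Slc6 and Slc38 proteins use the sodium gradient, some Slc36 proteins use protons, and Slc43 proteins work as facilitators. In myeloid cells the carriers are known for supplying glutamine, leucine, arginine and cystine, which feed mTORC1 signalling, nitric oxide and polyamine synthesis and glutathione.

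All values are FPKM, in which fragments are counted per transcript length and per library size, so levels can be set beside each other between genes. Depth, estimated from the step between low values, was 3.60 and 2.68 times that of the Gr-1+ library in dendritic cells and macrophages. Receptor genes of the olfactory and vomeronasal organs, taken here as silent in myeloid cells, had values above 0 in part. Whether any of them is expressed in these cells was not tested. The 95th percentile of these 1452 genes was 0.611 FPKM in dendritic cells, 3.24 in macrophages and 9.69 in Gr-1+ cells. This value is called the silent-gene level, and a lower FPKM is not read as expression. Markers of the labelled cells were present, but most also exceeded that level in other libraries. Of 12 dendritic cell markers 12, 9 and 5 did so in dendritic cells, macrophages and Gr-1+ cells, of 12 macrophage markers 12, 12 and 8, and of 12 neutrophil markers 11, 11 and 12. Summed FPKM was highest in the labelled library for each of these lists, whereas only 2 of the 12 dendritic cell markers, Flt3 and Ccr7, passed over macrophages by the size rule defined further on. Itgax and Batf3 were at 19.7 and 20.6 FPKM in dendritic cells and 47.0 and 42.1 in macrophages. The 6 monocyte markers summed to 1534, 3507 and 1157 FPKM in the same order of libraries, lowest in the library labelled as neutrophils and monocytes, with Ccr2 at 27.6, 247 and 25.8. Flt3, Itgax, Batf3 and Ccr2 were named after their values were seen. Summed FPKM of 10 B and plasma cell markers was 23883 in dendritic cells, 1410 in macrophages and 667 in Gr-1+ cells, and that of 12 colon epithelial markers was 792, 489 and 1654.

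The families were led by few genes. Of the 64 members, 32 exceeded the silent-gene level in dendritic cells, 20 in macrophages and 9 in Gr-1+ cells. These counts follow the height of that level and do not rank the populations. The same 9 members exceeded it in all 3 libraries, namely Slc1a5, Slc3a2, Slc6a6, Slc7a11, Slc7a14, Slc36a1os, Slc38a2, Slc38a10 and Slc43a3. An FPKM of 10 or more in any library was reached by 16 members, of which 8 were highest in dendritic cells, 5 in macrophages and 3 in Gr-1+ cells. Scaling of the libraries to equal sums moved the highest library of 1 of the 16 (Slc3a2), to median ratios of 3 (Slc6a6, Slc38a2 and Slc43a3), and to equal 75th percentiles of 2 (Slc6a6 and Slc43a3).

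**Figure D1:**
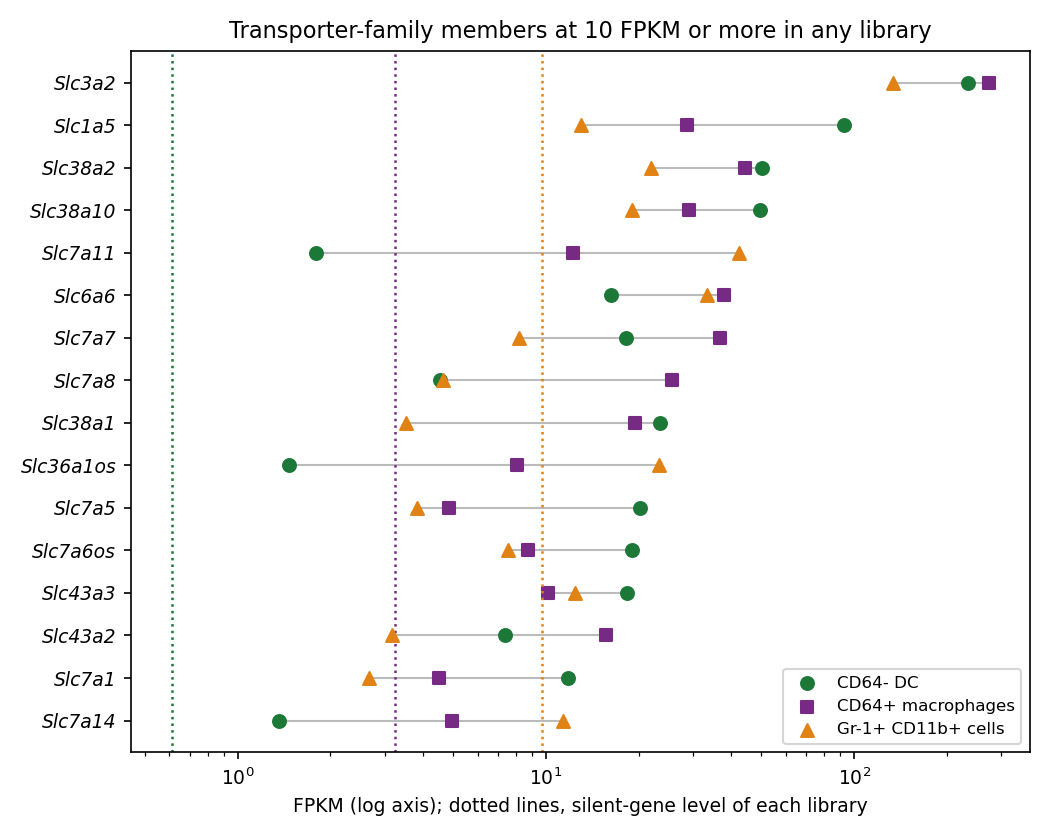
FPKM on a log axis of the 16 members that reached 10 FPKM in any library, with 1 point per library (circles dendritic cells, squares macrophages, triangles Gr-1+ cells). Dotted lines mark the silent-gene level of each library, at 0.611, 3.24 and 9.69 FPKM. Slc3a2 is the highest member in every library, and Slc7a11 has the widest spread, from 1.80 FPKM in dendritic cells to 42.4 in Gr-1+ cells.

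A member was called higher in 1 library by a size rule, a difference of 2 or more in log2(FPKM + 1) with the higher library reaching 10 FPKM. Between dendritic cells and macrophages, 0 of 64 members were higher in dendritic cells, where 1.53% of all 17329 genes at 1 FPKM or more were. In the same comparison 2 were higher in macrophages, Slc7a8 and Slc7a11, against 2.31% of all genes. Between Gr-1+ cells and dendritic cells, Slc7a11, Slc7a14 and Slc36a1os were higher in Gr-1+ cells, 3 members against a background of 3.65%. Slc1a5, Slc7a5 and Slc38a1 were lower there, again 3 members, against 6.28% of all genes. Between Gr-1+ cells and macrophages, 0 members were higher in Gr-1+ cells (1.41% of all genes), and Slc7a7, Slc7a8 and Slc38a1 were lower, 3 members against 3.41%. A total of 47 members reached 1 FPKM in any library, and 17 did not. As shares of these 47, on the same terms as the background, 2 called members are 4.26% and 3 are 6.38%. Of members at 10 FPKM or more in either library, 14.3% were lower in dendritic cells than in macrophages, where 6.06% of all such genes were. In Gr-1+ cells 21.4% were higher and 21.4% lower than in dendritic cells, against 9.39% and 16.1%, and 23.1% were lower than in macrophages, against 9.72%. These shares rest on 2 or 3 genes of 13 or 14 and are no result about the families as a set. The comparisons share libraries and are not independent of each other. In these bulk libraries, fewer cells of a type and less RNA per cell cannot be told apart.

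Median differences of the members were small. Over all 64, the median of log2(FPKM + 1) in dendritic cells minus macrophages was -0.215, in Gr-1+ cells minus dendritic cells 0.469 and in Gr-1+ cells minus macrophages 0.137. Over all 24346 symbols each of these medians was 0. Over the 47 members at 1 FPKM or more the medians were -0.229, 0.816 and 0.358 in the same order of comparisons. Over all 17329 genes at 1 FPKM or more they were -0.053, 0.013 and 0.102. The value of 0.816 moved with the low values described further on. It was -0.23 after the median of the silent genes was subtracted from each library.

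The CD98 heavy chain gene Slc3a2 was the most abundant member everywhere. It was at 233 FPKM in dendritic cells, 274 in macrophages and 133 in Gr-1+ cells, which placed it at rank 443, 488 and 680 of all symbols. No comparison of it passed the size rule, with differences of -0.23 in dendritic cells minus macrophages, -0.80 in Gr-1+ cells minus dendritic cells and -1.03 in Gr-1+ cells minus macrophages. Equal sums turned the first of these to 0.16. Slc3a2 made up 38.3% of the summed FPKM of all 64 members in dendritic cells, 44.1% in macrophages and 31.996% in Gr-1+ cells. The other heavy chain gene, Slc3a1, whose protein serves cystine uptake in kidney and intestine, was at 0.211, 0.139 and 1.13 FPKM and below the silent-gene level throughout. Slc3a2 lies on chromosome 19 at 8706882 to 8723369 on the minus strand (GRCm38).

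The light chains that pair with CD98 differed in make-up between the libraries. Slc7a5, Slc7a6, Slc7a7, Slc7a8, Slc7a10 and Slc7a11 summed to 53.8 FPKM in dendritic cells, 85.7 in macrophages and 64.8 in Gr-1+ cells, below the heavy chain by 4.34, 3.19 and 2.06 times. In dendritic cells, Slc7a5 and Slc7a7 led with 37.6% and 33.9% of that sum. In macrophages Slc7a7 and Slc7a8 led with 42.98% and 29.97%. In Gr-1+ cells Slc7a11 alone held 65.5%, and no other of these light chains exceeded the silent-gene level. Shares within a library do not change with the scaling between libraries. With the silent-gene median subtracted, the leading shares were 43.8% for Slc7a7 in macrophages and 72.1% for Slc7a11 in Gr-1+ cells, and those in dendritic cells did not move because that median was 0 there.

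**Figure D2:**
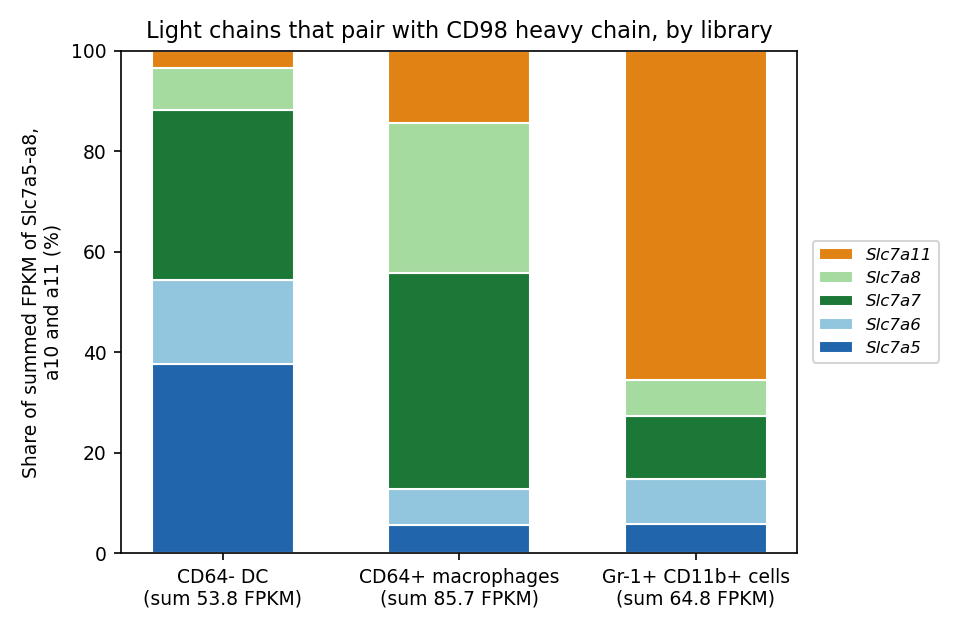
Stacked bars give the share, in percent, of each light chain gene in the summed FPKM of Slc7a5, Slc7a6, Slc7a7, Slc7a8, Slc7a10 and Slc7a11 in the 3 libraries (1 library each, no error). Slc7a10, listed at 0 in every library, has no visible segment. Slc7a5 is the largest segment in dendritic cells at 37.6%, Slc7a7 in macrophages at 42.98% and Slc7a11 in Gr-1+ cells at 65.5%.

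Slc7a11 encodes xCT, the light chain that imports cystine in exchange for glutamate and so supplies cysteine for glutathione. It was at 1.80 FPKM in dendritic cells, 12.2 in macrophages and 42.4 in Gr-1+ cells, rank 10566, 4962 and 1595 of all symbols. The level in Gr-1+ cells was 23.6-fold that in dendritic cells (95% exact counting interval 19.7 to 28.6, from about 875 and 133 fragments on its longest transcript). It was 3.46-fold that in macrophages (3.13 to 3.83), and the macrophage level was 6.82-fold that in dendritic cells (5.67 to 8.30). These intervals cover counting error only, not the variation between mice or sorts. The order of the 3 values is that of the silent-gene levels, each of which Slc7a11 exceeded. With the silent-gene median subtracted the folds were 22.7, 3.50 and 6.48. On the log2(FPKM + 1) scale the differences were 3.96 in Gr-1+ cells minus dendritic cells, -2.24 in dendritic cells minus macrophages and 1.71 in Gr-1+ cells minus macrophages. The first passed the size rule under all 3 scalings. The second fell to -1.95 with equal sums and no longer passed, and the third passed at 2.28 with median-ratio and 2.29 with 75th percentile scaling. The gene lies on chromosome 3 at 49892526 to 50443614 on the minus strand, and its span contains 5 other annotated genes, pseudogenes and an antisense gene among them.

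Promoters were read because Slc7a11 is a known target of the stress factor ATF4, which binds amino acid response elements, and of NRF2, which binds antioxidant response elements. RefSeq windows of 250 bases before the start were held for 46 of the 64 members (GRCm38.p6). The amino acid response element, searched as TGATGNAAN on both strands, was found for 2 of these 46 genes, Slc7a11 and Slc7a7. That was 3 of the 67 windows of members (4.48%), against 3.44% of 32851 windows of all genes. Below, the window before each gene's outermost start is shown with the matches in capitals.
Slc7a11 promoter, chr3:50443614-50443863, minus strand: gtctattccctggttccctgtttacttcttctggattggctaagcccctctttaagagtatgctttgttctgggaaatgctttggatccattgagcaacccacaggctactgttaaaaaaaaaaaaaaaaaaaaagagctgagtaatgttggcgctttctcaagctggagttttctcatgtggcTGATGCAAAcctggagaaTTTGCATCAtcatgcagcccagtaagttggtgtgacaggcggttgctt
Slc7a7 promoter, chr14:54417945-54418194, minus strand: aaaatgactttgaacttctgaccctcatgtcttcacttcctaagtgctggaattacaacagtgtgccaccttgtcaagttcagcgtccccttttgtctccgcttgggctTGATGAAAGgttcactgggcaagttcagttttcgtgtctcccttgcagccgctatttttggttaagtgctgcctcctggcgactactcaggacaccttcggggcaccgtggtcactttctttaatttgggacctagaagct

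The Slc7a11 window holds the element 2 times, in opposite orientations, at 66 to 58 bases before the start on the gene's strand and at 48 to 40 on the other. A second Slc7a7 window, that of another start, holds TGATGCAAC at 243 to 235 bases before it. The antioxidant response element, searched as TGACNNNGC on both strands, was found in 9 of the 67 member windows (13.4%), of 8 genes, and in 10.2% of all windows, and not in that of Slc7a11. The E-box CACGTG, bound by MYC and the lysosomal regulators of the MiT family, was found in 8 of the 67 member windows (11.9%) and in 6.02% of all windows. The 8 genes were Slc1a6, Slc1a7, Slc6a3, Slc7a14, Slc36a1, Slc38a5, Slc38a7 and Slc43a1. Some genes have several windows, and a match is a run of letters and not a shown binding site.

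Slc7a8 and Slc7a7 were highest in macrophages. Slc7a8 encodes LAT2, an exchanger of neutral amino acids, and was at 25.7 FPKM in macrophages, 4.53 in dendritic cells and 4.64 in Gr-1+ cells. Both latter libraries lay well below the macrophage one, by 5.68-fold in dendritic cells (95% exact counting interval 4.74 to 6.82) and 5.53-fold in Gr-1+ cells (4.09 to 7.84), and the Gr-1+ value was under its silent-gene level. With the silent-gene median subtracted the second fold was 8.35. The differences of -2.27 in dendritic cells minus macrophages and -2.24 in Gr-1+ cells minus macrophages passed the size rule. With equal sums the first was -1.93, and with median ratios the second was -1.74. Slc7a7 encodes y+LAT1, which exports arginine and lysine, and is the gene of lysinuric protein intolerance, a disease in which macrophages are affected. It was at 36.8 FPKM in macrophages, 18.2 in dendritic cells and 8.17 in Gr-1+ cells. Its difference of -2.05 in Gr-1+ cells minus macrophages passed the rule and fell to -1.51 with median ratios, and that of -0.98 in dendritic cells minus macrophages did not pass. Slc7a8 lies on chromosome 14 at 54722209 to 54781946 and Slc7a7 on the same chromosome at 54369442 to 54417780, both on the minus strand. Slc7a7 overlaps the oppositely oriented gene Oxa1l, and whether the libraries kept strand is not given in the sources used here.

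Slc7a5, the gene of LAT1, which takes up leucine and other large neutral amino acids, was highest in dendritic cells. It was at 20.2 FPKM in dendritic cells, 4.86 in macrophages and 3.82 in Gr-1+ cells, the last below the silent-gene level. The dendritic cell level was 4.17-fold that in macrophages (95% exact counting interval 3.38 to 5.22), a difference of 1.86 that missed the size rule and passed it with equal sums at 2.21. The difference of -2.14 in Gr-1+ cells minus dendritic cells, a fold of 5.29 that was 9.26 with the silent-gene median subtracted, passed and was -1.46 with median ratios. Slc7a5 lies on chromosome 8 at 121881150 to 121907694 on the minus strand. Slc7a6, which encodes y+LAT2, was at 9.02, 6.09 and 5.72 FPKM in dendritic cells, macrophages and Gr-1+ cells, the last below the silent-gene level. Its difference in dendritic cells minus macrophages was 0.499, and no comparison of it passed the size rule as deposited. Slc7a9, the partner of Slc3a1, and the light chain genes Slc7a12, Slc7a13 and Slc7a15 were at or below the silent-gene level in all 3 libraries.

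Cationic transporters import arginine and lysine without a heavy chain. Slc7a1, the gene of the widely expressed CAT1, was at 11.8 FPKM in dendritic cells, 4.49 in macrophages and 2.66 in Gr-1+ cells, 2.63-fold higher in dendritic cells than in macrophages (95% exact counting interval 2.24 to 3.11). Its differences of 1.22 in dendritic cells minus macrophages and -1.81 in Gr-1+ cells minus dendritic cells missed the size rule. The second passed at -2.13 with equal sums and at -2.11 with a pseudocount of 0.1. The Gr-1+ value was below the silent-gene level. It lay 4.45-fold below dendritic cells, a fold that was 11.6 with the silent-gene median subtracted. Slc7a2, the CAT2 gene that activated macrophages can induce, was at 0.176, 1.96 and 1.31 FPKM in dendritic cells, macrophages and Gr-1+ cells and nowhere above the silent-gene level. Slc7a3 exceeded it only in dendritic cells, at 0.801 FPKM. Slc7a4, whose transport function is unclear, was at 2.12 FPKM in dendritic cells, 2.75 in macrophages and 1.04 in Gr-1+ cells, and also passed the level only in dendritic cells.

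Slc7a14, a CAT-related gene known mainly from neural tissue, was at 1.37 FPKM in dendritic cells, 4.95 in macrophages and 11.3 in Gr-1+ cells. Its order is that of the silent-gene levels, 0.611, 3.24 and 9.69 FPKM, and it exceeded them by little. The difference of 2.38 in Gr-1+ cells minus dendritic cells passed the size rule, but after subtraction of the silent-gene median the level in Gr-1+ cells lay under 10 FPKM and the difference of 2.18 no longer passed. The gene overlaps an antisense gene. Of 6 enteric glia and neuron markers, 1 exceeded the silent-gene level in dendritic cells and 0 in the other libraries. Slc36a1os had the same order, at 1.47 FPKM in dendritic cells, 8.04 in macrophages and 23.3 in Gr-1+ cells, with a difference of 3.30 in Gr-1+ cells minus dendritic cells. It lay farther above the silent-gene level than Slc7a14, and its difference still passed after the subtraction, at 3.20. Its values nevertheless rose across the libraries in nearly the same proportion as the silent-gene levels, and the part of background was not tested. Slc36a1os is annotated as an antisense transcript on chromosome 11 and encodes no transporter.

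Among the neutral carriers of the Slc1 family, Slc1a5 encodes ASCT2, an exchanger that brings in glutamine. Slc1a5 was at 93.0 FPKM in dendritic cells, 28.6 in macrophages and 13.01 in Gr-1+ cells, and ranked 1121, 3003 and 3719 of all symbols. The dendritic cell level was 3.25-fold that in macrophages (95% exact counting interval 2.94 to 3.59) and 7.15-fold that in Gr-1+ cells (5.72 to 8.999). The difference of -2.75 in Gr-1+ cells minus dendritic cells passed the size rule, by a narrow margin at -2.01 with 75th percentile scaling, and narrowly missed it with median ratios. The difference of 1.67 in dendritic cells minus macrophages missed the rule and passed with equal sums at 2.05. It lies on chromosome 7 at 16781340 to 16798274 on the forward strand. Slc1a4, the ASCT1 gene for alanine, serine and cysteine, was at 3.74 FPKM in dendritic cells, 0.706 in macrophages and 3.08 in Gr-1+ cells, and only the dendritic cell value exceeded its silent-gene level.

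The glutamate transporters of the family, Slc1a1, Slc1a2, Slc1a3, Slc1a6 and Slc1a7, summed to 1.43 FPKM in dendritic cells, 4.23 in macrophages and 10.2 in Gr-1+ cells. Only Slc1a1, at 0.662 FPKM in dendritic cells, lay above the silent-gene level of its library. The glial transporter genes Slc1a2 and Slc1a3 were at 4.74 and 2.76 FPKM in Gr-1+ cells and 0.323 and 0.386 in dendritic cells, all under that level.

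The higher dendritic cell values of Slc1a5, Slc7a5 and Slc7a1 coincided with markers of other cells in that library. Each of the 10 B and plasma cell markers passed the size rule in favour of dendritic cells against both other libraries, with Jchain at 18847, 982 and 352 FPKM in dendritic cells, macrophages and Gr-1+ cells. None of the 10 was at 0 in any library. Of 7 T cell markers found, 7 exceeded the silent-gene level in dendritic cells, 4 in macrophages and 0 in Gr-1+ cells, with summed FPKM of 245, 43.7 and 34.3. The part of these cells in the transporter values was not tested.

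Slc38 carriers, sodium-coupled transporters of glutamine and small neutral amino acids, summed to 133 FPKM in dendritic cells, 109 in macrophages and 55.9 in Gr-1+ cells over 11 members. Slc38a2 (SNAT2, which is induced by amino acid shortage) was at 50.1 FPKM in dendritic cells, 44.1 in macrophages and 21.9 in Gr-1+ cells. It held 37.5%, 40.5% and 39.1% of the family's sum as deposited, and 37.5%, 41.8% and 47.6% with the silent-gene median subtracted. Slc38a10, an intracellular member, was at 49.5, 29.2 and 19.03 FPKM in that same order, and neither gene passed the size rule in any comparison. Slc38a1 (SNAT1), by contrast, was at 23.5 FPKM in dendritic cells and 19.4 in macrophages but at 3.51 in Gr-1+ cells, below the silent-gene level there. Dendritic cells and macrophages lay close together and the Gr-1+ library apart, 6.69-fold below dendritic cells (95% exact counting interval 5.13 to 8.88) and 5.52-fold below macrophages (4.23 to 7.36). Because the Gr-1+ value was not above background these folds are uncertain beyond their intervals, and with the silent-gene median subtracted they were 12.5 and 10.04. The differences of -2.44 and -2.18 passed the size rule, and with median ratios they were -1.77 and -1.69. Slc38a1 held 17.6% of the family's sum in dendritic cells, 17.8% in macrophages and 6.27% in Gr-1+ cells. It lies on chromosome 15 at 96571418 to 96642913 on the minus strand.

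Lysosomal members of the family were low. Slc38a7, which exports glutamine and asparagine from lysosomes, was at 8.16 FPKM in macrophages, 4.45 in dendritic cells and 1.80 in Gr-1+ cells. Slc38a9, the lysosomal arginine sensor of mTORC1, was at 4.10 FPKM in dendritic cells, 2.51 in macrophages and 2.17 in Gr-1+ cells, above the silent-gene level in dendritic cells only. Slc38a6 was at 1.04, 4.19 and 3.59 FPKM in dendritic cells, macrophages and Gr-1+ cells. The remaining members, Slc38a3, Slc38a4, Slc38a5, Slc38a8 and Slc38a11, reached at most 1.98 FPKM in any library.

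In the Slc6 family only the taurine transporter gene Slc6a6 was abundant. Taurine is the main free amino acid-like solute of neutrophils and takes up the hypochlorous acid they make. Slc6a6 was at 37.7 FPKM in macrophages, 33.4 in Gr-1+ cells and 16.2 in dendritic cells. Macrophages and Gr-1+ cells differed by -0.17 on the log2(FPKM + 1) scale, and the differences of -1.17 in dendritic cells minus macrophages and 0.998 in Gr-1+ cells minus dendritic cells fell short of the size rule. The macrophage level was 2.32-fold that in dendritic cells (95% exact counting interval 2.13 to 2.54). Slc6a14, a broad transporter of neutral and cationic amino acids that gut epithelium can express, was at 5.39 FPKM in Gr-1+ cells, 2.98 in dendritic cells and 2.04 in macrophages, above the silent-gene level in dendritic cells only. The order of its FPKM is that of the summed epithelial markers given above, whose part was not tested. The creatine, glycine and GABA transporter genes Slc6a8, Slc6a9 and Slc6a13 exceeded the level in dendritic cells only, at 0.643, 0.684 and 0.683 FPKM. The transporter genes of noradrenaline, dopamine and serotonin, Slc6a2, Slc6a3 and Slc6a4, did not exceed it in any library.

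Slc43 and Slc36 members carry amino acids without sodium. Slc43a2 (LAT4, which lets large neutral amino acids pass) was at 15.7 FPKM in macrophages, 7.38 in dendritic cells and 3.17 in Gr-1+ cells. Macrophages were 4.94-fold above Gr-1+ cells (95% exact counting interval 3.70 to 6.68), and the difference of -1.9996 missed the size rule by less than its rounding. The Gr-1+ value was under the silent-gene level. With the silent-gene median subtracted the fold was 9.83 and the difference passed at -2.67, as it did at -2.27 with a pseudocount of 0.1. Slc43a3, whose product carries purine bases rather than amino acids, was at 18.4, 10.1 and 12.4 FPKM in dendritic cells, macrophages and Gr-1+ cells. Slc43a1 (LAT3) was at 2.12, 0.393 and 2.30 FPKM in that same order and exceeded the silent-gene level in dendritic cells only. The Slc36 family gene Slc36a4 was at 8.45 FPKM in macrophages, 2.24 in dendritic cells and 1.83 in Gr-1+ cells, a difference of -1.55 in dendritic cells minus macrophages. Slc36a1, the lysosomal member of that family, was at 0.675, 1.47 and 0.467 FPKM and Slc36a3 at 0.713, 1.23 and 3.32 in dendritic cells, macrophages and Gr-1+ cells, and each exceeded the level in dendritic cells only. Slc7a6os, which lies opposite Slc7a6 and encodes no carrier, was at 19.1, 8.78 and 7.52 FPKM, and its annotated span does not overlap that of Slc7a6.

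**Figure D3:**
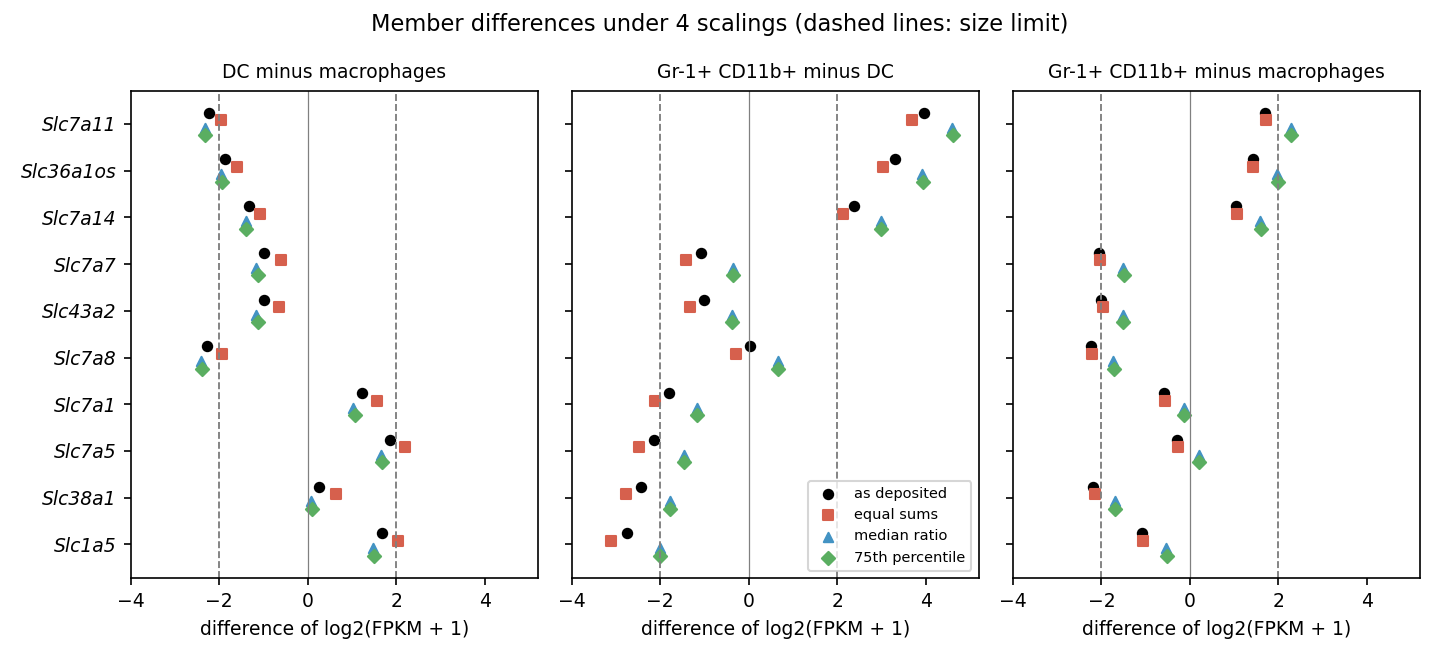
Differences of log2(FPKM + 1) between libraries for 10 members, as deposited (circles) and after scaling to equal sums (squares), median ratios (triangles) and equal 75th percentiles (diamonds). Dashed lines mark the limit of 2 in either direction. Slc7a11 in Gr-1+ cells minus dendritic cells stays beyond the limit under every scaling, between 3.68 and 4.61, whereas the negative differences of Slc38a1 pass it only as deposited and with equal sums.

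The other 32 members were at or below the silent-gene level of every library. They comprised 15 Slc6, 6 Slc7, 5 Slc38, 4 Slc1, 1 Slc3 and 1 Slc36 symbols. Their median was 0.0760 FPKM in dendritic cells, 0.254 in macrophages and 1.04 in Gr-1+ cells, and their highest value was 0.412, 2.43 and 4.74. The median of the silent genes was 0, 0.605 and 1.64 FPKM in that same order. Both sets of genes thus had their lowest values in dendritic cells and their highest in Gr-1+ cells. Listed at 0 in all 3 libraries were 2 members, Slc7a10 and Slc6a19os. A value resting on 3 fragments of a transcript of 1 kb was 0.373 FPKM in dendritic cells, 0.501 in macrophages and 1.34 in Gr-1+ cells. Longer transcripts reach 3 fragments at a lower FPKM. Slc1a2 in dendritic cells, for example, was at 0.323 FPKM from about 30 fragments.

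**Figure D4:**
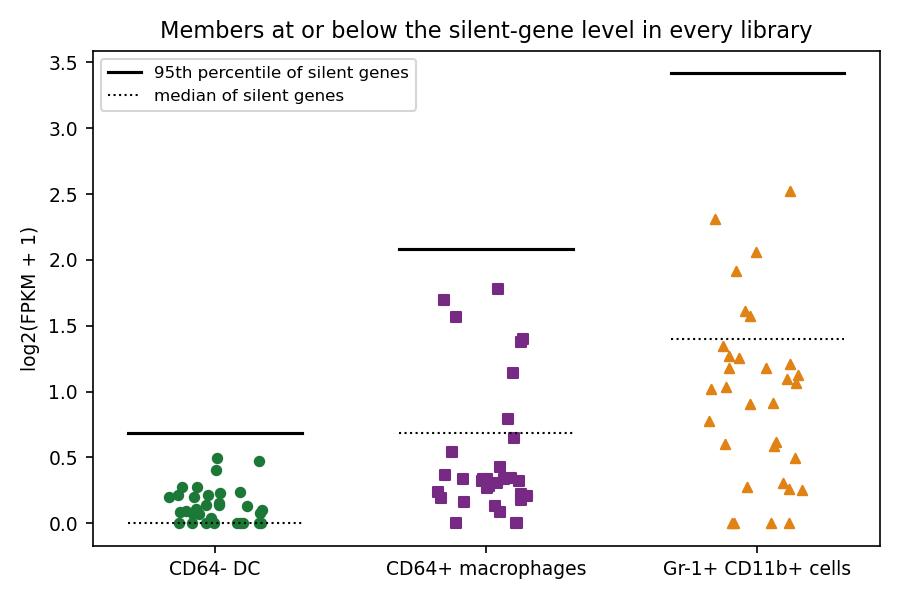
Each point is 1 of the 32 members that lay at or below the silent-gene level in every library, as log2(FPKM + 1), spread sideways for visibility. Solid lines mark the 95th percentile and dotted lines the median of the 1452 silent receptor genes in the same library. Points and lines both lie lowest in dendritic cells and highest in Gr-1+ cells.

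Genes that use the carried amino acids were taken from 6 lists. In the glutathione and thioredoxin list, downstream of cystine uptake, 5 of 20 genes were higher in Gr-1+ cells than in dendritic cells by the size rule and 0 lower, where 3.65% and 6.28% of all genes were (9.39% and 16.1% of those at 10 FPKM or more). The list's median difference was 1.04. Gsr, the glutathione reductase gene, was at 450 FPKM in Gr-1+ cells, 145 in macrophages and 28.4 in dendritic cells. Ggt1, whose product splits extracellular glutathione, was at 44.3 FPKM in Gr-1+ cells and 0.533 and 0.691 in macrophages and dendritic cells, the first below and the second just above the silent-gene level. Glrx, a glutaredoxin gene, was at 400 FPKM in Gr-1+ cells, 157 in macrophages and 61.9 in dendritic cells, and Nfe2l2, the gene of NRF2, at 440, 442 and 97.7. The fifth was Ggt5, named here after its values were seen, at 18.4, 6.27 and 3.82 FPKM. With equal sums 3 genes of the list were higher and 1 lower, with median ratios 7 and 0, and with the silent-gene median subtracted 4 and 2. In dendritic cells minus macrophages 0 were higher and 4 lower (1.53% and 2.31% of all genes), among them the heme oxygenase gene Hmox1 at 18.8 against 167 FPKM, and with equal sums 1 was lower. Prdx1, a peroxiredoxin gene, was at 128 FPKM in Gr-1+ cells against 550 in macrophages and 346 in dendritic cells. Its difference of -2.09 in Gr-1+ cells minus macrophages passed the size rule. In that comparison 1 gene of the list was higher and 1 lower (1.41% and 3.41% of all genes), and 2 and 0 with median ratios.

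The list of ATF4 and the integrated stress response split in direction. In dendritic cells 4 of 24 genes were higher than in macrophages and 1 lower (median 0.65), and in Gr-1+ cells 1 was higher than in dendritic cells and 6 lower (median -0.88). Of all genes, 1.53% and 2.31% were called in the first comparison and 3.65% and 6.28% in the second. With median ratios the second median was -0.23, with 5 genes lower. In Gr-1+ cells minus macrophages 0 genes were higher and 1 lower (1.41% and 3.41% of all genes), with a median of -0.29. Phgdh, which starts serine synthesis, was higher in dendritic cells than in both other libraries, at 137 FPKM in dendritic cells, 8.97 in macrophages and 10.2 in Gr-1+ cells. Shmt2, a mitochondrial gene of serine and glycine exchange, was at 58.2, 16.5 and 3.60 FPKM and passed only between Gr-1+ cells and dendritic cells. Eif2ak3, which encodes the endoplasmic reticulum stress kinase PERK, was at 54.8, 4.93 and 2.58 FPKM in that same order. The Gr-1+ values of Shmt2 and Eif2ak3 were below the silent-gene level. That level was exceeded by 22, 17 and 9 of the 24 genes in dendritic cells, macrophages and Gr-1+ cells. Of the B and plasma cell markers that were also higher in dendritic cells, Xbp1, itself a factor of endoplasmic reticulum stress, was at 1011, 239 and 233 FPKM, and the part of those cells was not tested. Cebpb, a myeloid transcription factor gene and a partner of ATF4, was the gene lower in dendritic cells, at 247 FPKM against 1719 in macrophages and 3912 in Gr-1+ cells. Ppp1r15a, Atf3 and Nupr1 did not pass in any comparison, with 255, 122 and 80.8 FPKM in dendritic cells, 420, 346 and 230 in macrophages and 530, 181 and 76.6 in Gr-1+ cells.

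Enzymes of amino acid metabolism numbered 28, of which 6 were lower in Gr-1+ cells than in dendritic cells and 2 higher (median -0.98), and 6 lower than in macrophages and 0 higher (median -0.80). Of all genes, 6.28% were lower and 3.65% higher in the first comparison and 3.41% and 1.41% in the second. With median ratios 2 were lower in either comparison, and the medians were -0.23 and -0.24. Arg2, the mitochondrial arginase gene, was at 779 FPKM in Gr-1+ cells, 222 in macrophages and 13.3 in dendritic cells. Odc1, which starts polyamine synthesis, was at 59.0, 296 and 386 FPKM in that order, and the aspartate aminotransferase gene Got1 at 28.2, 306 and 127. Il4i1, a phenylalanine and tryptophan oxidase gene, was at 111 FPKM in dendritic cells, 12.4 in macrophages and 1.51 in Gr-1+ cells, and Kmo, of the kynurenine pathway, at 48.1, 19.5 and 3.62. Between dendritic cells and macrophages 1 enzyme gene was higher in dendritic cells and 2 lower, against 1.53% and 2.31% of all genes.

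Of 20 aminoacyl-tRNA synthetase genes, 10 were lower in Gr-1+ cells than in dendritic cells and 0 higher, with a median of -2.02. Of all genes 6.28% were lower there, and 16.1% of those at 10 FPKM or more. With median ratios 4 were lower and the median was -1.29, and with equal sums 14 were lower. In Gr-1+ cells minus macrophages 2 were lower and 0 higher (3.41% and 1.41% of all genes), with a median of -1.35. With median ratios 0 were lower in that comparison. Only Vars was higher in dendritic cells than in macrophages (1.53% of all genes), at 121 against 18.4 FPKM, with 9.24 in Gr-1+ cells. Iars, Farsa and Yars were at 25.9, 59.3 and 29.4 FPKM in dendritic cells and 2.83, 8.05 and 3.56 in Gr-1+ cells, all lower there. Nars was at 120 and 40.5 without passing. The Gr-1+ values of Vars, Iars, Farsa and Yars were below the silent-gene level. All 20 genes exceeded that level in dendritic cells and in macrophages, but 8 did in Gr-1+ cells. The lower calls thus rest in part on values not read as expression. With the silent-gene median subtracted 13 genes were lower in Gr-1+ cells than in dendritic cells.

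Of 29 genes of amino acid sensing by mTORC1, 1 passed the size rule in any comparison as deposited, in Gr-1+ cells minus dendritic cells. Of all genes, 3.65% were higher and 6.28% lower in that comparison. With equal sums 3 were lower there and with the silent-gene median subtracted 2, and with median ratios 1 was lower and 1 higher. The gene that passed as deposited was the leucine sensor homologue gene Sesn1, at 27.0 FPKM in dendritic cells, 9.66 in macrophages and 2.21 in Gr-1+ cells. Its Gr-1+ value was below the silent-gene level. Sesn2 had the other order, at 71.4 FPKM in Gr-1+ cells, 17.6 in macrophages and 18.99 in dendritic cells, and passed in neither comparison with differences of 1.86 and 1.96. The Ragulator subunit genes Lamtor2 and Lamtor5 were at 226 and 133 FPKM in dendritic cells, 268 and 187 in macrophages and 102 and 62.5 in Gr-1+ cells. Of 20 other amino acid and peptide carriers, 1 passed in any comparison, the lysosomal histidine and peptide transporter gene Slc15a4, lower in Gr-1+ cells than in dendritic cells, at 32.6 FPKM in dendritic cells, 16.9 in macrophages and 5.22 in Gr-1+ cells. Of all genes 6.28% were lower in that comparison. The Gr-1+ value of Slc15a4 was below the silent-gene level, and its call was lost with median ratios or 75th percentiles. With either scaling, 1 gene was higher in Gr-1+ cells than in dendritic cells and 1 lower in dendritic cells than in macrophages. The relative of Slc15a4, Slc15a3, was at 33.3, 128 and 133 FPKM in that same order, a difference of 1.96 in Gr-1+ cells minus dendritic cells.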

How the data were processed

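RNA of 3 sorted populations was made into full-length cDNA with SMART-Seq HT and into Nextera libraries, per the labels' protocols. The authors deposited FPKM per gene symbol. Per the submitters' processing notes, the build was mm10 and the tools were Cufflinks 2.2.1, TopHat2 2.0.13, SAMtools 0.1.19 and Bowtie2 2.2.3, without their roles. The sources used here do not give annotation, filters or pooling. FPKM depends on the library total, so a few abundant transcripts lower all other values. The 10 highest genes held 15.0%, 22.2% and 33.5% of the sum in dendritic cells, macrophages and Gr-1+ cells.

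Values were used as deposited, with a pseudocount of 1 for log2. Genes at 1 FPKM or more in any library formed the background. Depth came from single-transcript genes over 800 nt, where 74.7%, 67.3% and 69.0% of low values were whole multiples of a common step to within 0.2 (chance gives 40%). Fragment numbers assume the longest GENCODE M21 transcript and so are approximate, and intervals are exact binomial (Clopper-Pearson). Every member above the silent-gene level in any library was named. From each further list the 4 genes with the highest FPKM and the 4 with the largest difference were eligible. Members, lists and rules were chosen with earlier results of these data known, and light-chain shares after the values were seen. Python 3.11.15, NumPy 2.4.6, pandas 2.3.3, SciPy 1.17.1 and matplotlib 3.10.9 were used.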

Additional observations from a re-analysis of the deposited data

How the results depend on the processing

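With 1 library per population the limits are scaling and background. The median shift of a difference by scaling was taken over the 17329 genes at 1 FPKM or more in any library. In dendritic cells minus macrophages it was 0.31 with equal sums and -0.16 with median ratios. It was -0.29 and 0.59 in Gr-1+ cells minus dendritic cells, and 0.02 and 0.46 in Gr-1+ cells minus macrophages. With 75th percentiles it was -0.14, 0.58 and 0.48 in these comparisons. Counts of members beyond 1.5 times those reported were as follows. In dendritic cells minus macrophages, members higher numbered 1 with a pseudocount of 0.1 or with the silent-gene median subtracted, 2 with equal sums and 4 with a log2 limit of 1, and members lower 0 with a pseudocount of 10, a floor of 30 FPKM, a log2 limit of 3 or equal sums. In Gr-1+ cells minus dendritic cells, members higher numbered 1 with a pseudocount of 10 or a floor of 30 FPKM and 5 with a floor of 1 FPKM, and members lower 1 with a pseudocount of 10, a floor of 30 FPKM or 75th percentiles, 0 with a log2 limit of 3 or median ratios and 8 with a limit of 1. In Gr-1+ cells minus macrophages, members higher numbered 1 with a floor of 1 FPKM, median ratios or 75th percentiles and 3 with a limit of 1, and members lower 0 with a pseudocount of 10, a limit of 3, median ratios or 75th percentiles, 1 with a floor of 30 FPKM and 6 with a limit of 1. The cause was not tested. For the 32 members above the silent-gene level in any library, 989 of 1056 values under 11 alternatives kept their side of the size rule and none that had passed it changed sign. Most of these values had not passed as deposited, and the alternative without a filter on low values cannot change a call. Calls lost numbered 9 each with a pseudocount of 10 and a log2 limit of 3, and 8 with a floor of 30 FPKM. Losses with median ratios, 75th percentiles and equal sums were 6, 5 and 2, and 1 with the silent-gene median subtracted. The other 32 members were not followed singly, and those added by a floor of 1 FPKM, Slc1a2 and Slc7a9, are among them. No paired analysis was possible because each population has 1 library.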
